A study of Mus musculus with 6 samples.

Results

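The genes described here belong to the TNF receptor and NF-kB system: TNF superfamily ligands and receptors, the TRAF adaptors that bind the receptors' tails, and the kinases, subunits and inhibitors of NF-kB. They were chosen by symbol, as all names beginning Tnfrsf, Tnfsf, Traf with a digit, or Nfkb, with Tnf, Rel, Rela, Relb and 12 named genes such as Cd40, Cd27, Ikbkb and Tnfaip3. This gave 67 of the 35186 symbols in the table of read counts. RNA was sequenced from memory B cells that bind the hapten NP, sorted from spleens of C57BL/6J mice, with about 1000 cells to a library. The libraries labelled DKO (genotype Nix-/-Bnip3-/-, n = 3) lack, by their label, the mitophagy receptors NIX, encoded by Bnip3l, and BNIP3; the libraries labelled WT are wild type (n = 3). The sources used here do not state ages, the immunisation, the kind of deletion, or whether each library is a different animal. The p-values therefore measure the spread between these libraries, which may be technical.

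As background, TNF family ligands act as trimers that cluster their receptors and draw in TRAF adaptors. In the canonical route the IKK complex then marks inhibitors of the IkB family for destruction and frees dimers of the NF-kB subunits. In the alternative route, used by CD40 and the BAFF receptor on B cells, TRAF3 is lost, the kinase NIK (Map3k14) accumulates and activates IKK alpha (Chuk), and p52 with RelB enters the nucleus. Survival of resting B cells depends on BAFF, whereas CD40 carries T cell help.

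Total counts were 444461, 517057 and 514854 in libraries 1, 2 and 3 labelled DKO, and 312908, 500527 and 319863 in libraries 1, 2 and 3 labelled WT. After scaling, 3 counts were worth 5.52 to 6.79 normalized CPM (CPM computed on the scaled library size) in libraries labelled DKO and 11.6 to 15.8 in libraries labelled WT. The libraries differed in kind as well as in depth. Spearman correlations across the tested genes were 0.466 to 0.496 among libraries labelled DKO and only 0.152 to 0.157 among libraries labelled WT. Between the groups they were 0.135 to 0.203. WT library 3 correlated more with each library labelled DKO (0.183 to 0.203) than with either other library labelled WT (0.152). Bnip3l had 10, 16 and 41 counts in libraries labelled DKO and 1, 8 and 0 in libraries labelled WT, which goes against the label in its mean. Bnip3 had 2, 24 and 11 counts in libraries labelled DKO and 25, 62 and 6 in libraries labelled WT. Which part of either gene is deleted is not stated, and reads from the rest would still be counted. These counts do not settle the genotypes, so each direction given here is between libraries as labelled. Defining B cell markers were sparse in both groups: Ms4a1 had 42, 70 and 65 counts in libraries labelled DKO and 28, 0 and 8 in libraries labelled WT, while Cd79a had 0, 2 and 4 counts in libraries labelled DKO and 3, 0 and 0 in libraries labelled WT. The B cell list (10 of 10 markers in the table) summed to 259.5 to 333 normalized CPM in libraries labelled DKO and 194 to 376 in libraries labelled WT.

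Marker lists for other cell types did not share a direction. The summed scaled level of 3 lists was lower in every library labelled DKO than in every library labelled WT, each resting on a few genes. The scaled sum of all symbols was lower too, 951742 to 1.01e+06 in libraries labelled DKO against 1.63e+06 to 1.93e+06 in libraries labelled WT. On library totals alone, the T cell list and the stromal and endothelial list overlapped between the groups. The erythroid and platelet list did not. The T cell list (10 of 10 markers in the table) summed to 203 to 269 normalized CPM in libraries labelled DKO and 350.0 to 1249.9 in libraries labelled WT. Bcl11b made up 746 of the sum in WT library 3 and Cd4 made up 247 of that in WT library 2, whereas Cd3e was higher in every library labelled DKO (21.3 to 36.8 against 5.25 to 20.9), and Trac, with 3 counts in all, was at 0 in the libraries labelled DKO. The stromal and endothelial list (10 of 10) summed to 430.0 to 563 in libraries labelled DKO and 688 to 1264 in libraries labelled WT, although Pecam1 was higher in every library labelled DKO. The erythroid and platelet list (8 of 8) summed to 22.6 to 48.4 in libraries labelled DKO and 184 to 336 in libraries labelled WT, with Hba-a2 and Hbb-bs at 0 in all 6 libraries. The other lists overlapped between the groups. Monocyte and macrophage markers (9 of 10) summed to 543, 714 and 949 normalized CPM in libraries labelled DKO and 178, 672 and 315 in libraries labelled WT. Within that list Itgam (183 to 333 against 5.22 to 110.3) and Lyz2 (79.2 to 399 against 0 to 52.5) were higher in every library labelled DKO. Cd14 had only 1 count, in WT library 3. Cd68, too sparse to test, had 27, 5 and 1 counts in libraries labelled DKO and 1, 0 and 0 in libraries labelled WT. The other tested markers of that list overlapped. Ccr2 had a log2 fold change of 1.12, whereas Fcgr1 (-1.49), Spic (-1.27) and Csf1r (-0.89) lay below 0. Without WT library 2, Fcgr1 was at 1.75 and Csf1r at 1.43. Neutrophil markers (10 of 10) summed to 133 to 1251 in libraries labelled DKO and 220.2 to 399 in libraries labelled WT, and dendritic cell markers (8 of 8) to 439.9 to 547 in libraries labelled DKO and 240.3 to 2615 in libraries labelled WT. Cxcr2 made up 1162 of the neutrophil sum in DKO library 3, and Itgax 2474 of the dendritic cell sum in WT library 3. The memory B cell marker Bach2 and the dendritic cell marker Zbtb46 were higher in every library labelled DKO, like Pecam1 and Cd3e. The neutrophil marker Ltf was lower in each of them (13.6 to 32.9 against 131 to 268), as were Col1a1 and Itga2b. Of all genes tested, 12.8% separated as higher and 6.39% as lower. In bulk samples, fewer cells of a type and less RNA per cell cannot be told apart.

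More of the 67 genes were detected in the libraries labelled DKO. A count was recorded for 53, 57 and 53 of them in libraries 1, 2 and 3 labelled DKO, and for 44, 46 and 46 in libraries 1, 2 and 3 labelled WT. Thinned to an equal depth of 312908 counts, the expected share with a count was 74.9%, 82.7% and 75.5% in libraries labelled DKO and 65.7%, 63.8% and 68.4% in libraries labelled WT. The whole table showed the same order, with 63.1% to 65.1% of all symbols detected at that depth in libraries labelled DKO and 47.7% to 52.3% in libraries labelled WT. The summed level after scaling ran in the opposite direction. Together the 67 genes had 1977, 1890.4 and 2175 normalized CPM in libraries labelled DKO, and 7835, 4011 and 2384 in libraries labelled WT. The scaled sum of all symbols, given above, was likewise higher in every library labelled WT. As a share of each library's counts the groups overlapped. The 67 genes held 0.197%, 0.199% and 0.218% in libraries labelled DKO and 0.479%, 0.207% and 0.142% in libraries labelled WT. Single genes weighed heavily in WT libraries 1 and 2. Tnfrsf26 held 37.3% of the group's counts in WT library 1 and Traf3 held 20.7% in WT library 2, whereas the top member of each library labelled DKO held 8.24% to 11.2%.

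**Figure D1:**
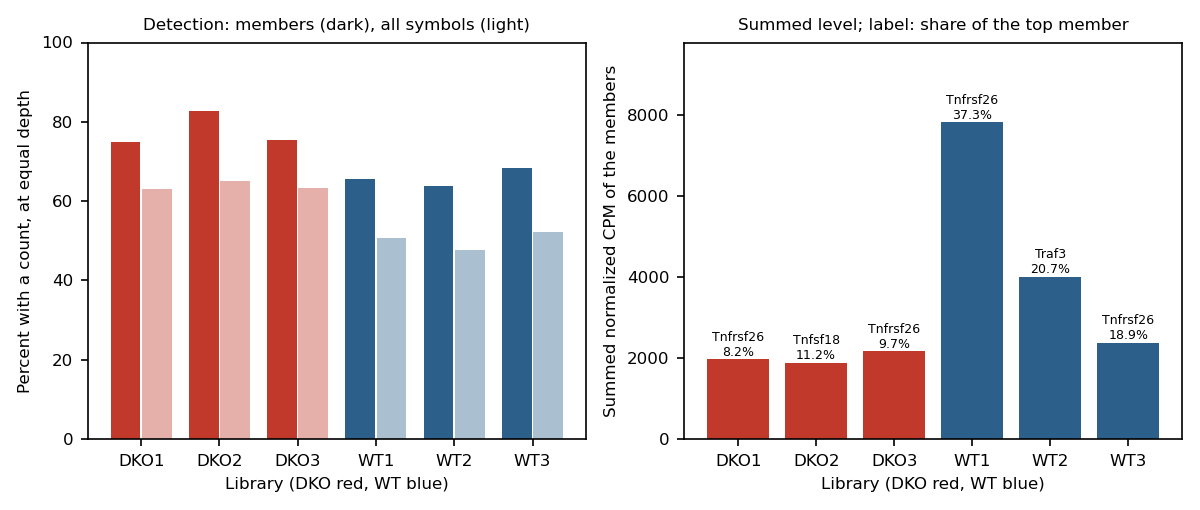
Left, percent of the 67 genes (dark) and of all symbols (light) with a count in each library at an equal depth of 312908 counts; right, summed normalized CPM of the 67 genes, with the most abundant member and its share of their counts. Libraries labelled DKO (red) detected more of the genes, while WT library 1 (blue) reached the highest sum, 7835, of which Tnfrsf26 made up 37.3% of the counts.

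Of the 67 genes, 29 passed the filter on low counts and were tested together with all other genes, 34 were counted but too sparse to test, and 4 (Ltbr, Tnfrsf12a, Tnfsf12 and Tnfsf13) had 0 counts in all 6 libraries. A gene can pass through the group where it is high, so counts over the 29 are descriptions. By edgeR's quasi-likelihood test, 0 of the 29 passed an adjusted p of 0.05, and 0 of all 8895 genes tested did (0%). With so wide a spread between libraries, a p that misses the threshold does not show that levels were alike. At an unadjusted p under 0.05 there was 1 gene higher in libraries labelled DKO, 3.45% of the 29 against 5.49% of all genes, and there were 3 lower, 10.3% against 6.59%. The groups did not overlap for 4 genes that were higher (13.8%, against 12.8% of all genes) and for 2 that were lower (6.90%, against 6.39%), shares close to those of the whole table. The median log2 fold change was -0.31 over the 29 genes, 11 above 0 and 18 below, beside -0.17 over all genes. DESeq2, run on the same filtered table, called 3 of the 28 genes to which it gave an adjusted p, all lower: Tnfrsf1a, Nfkb1 and Nfkbie. It called 2.57% of all genes as higher and 4.51% as lower. Without the filter DESeq2 called Tnfrsf1a alone among them, with 2.5% of all genes lower, and limma-voom called 0.

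**Figure D2:**
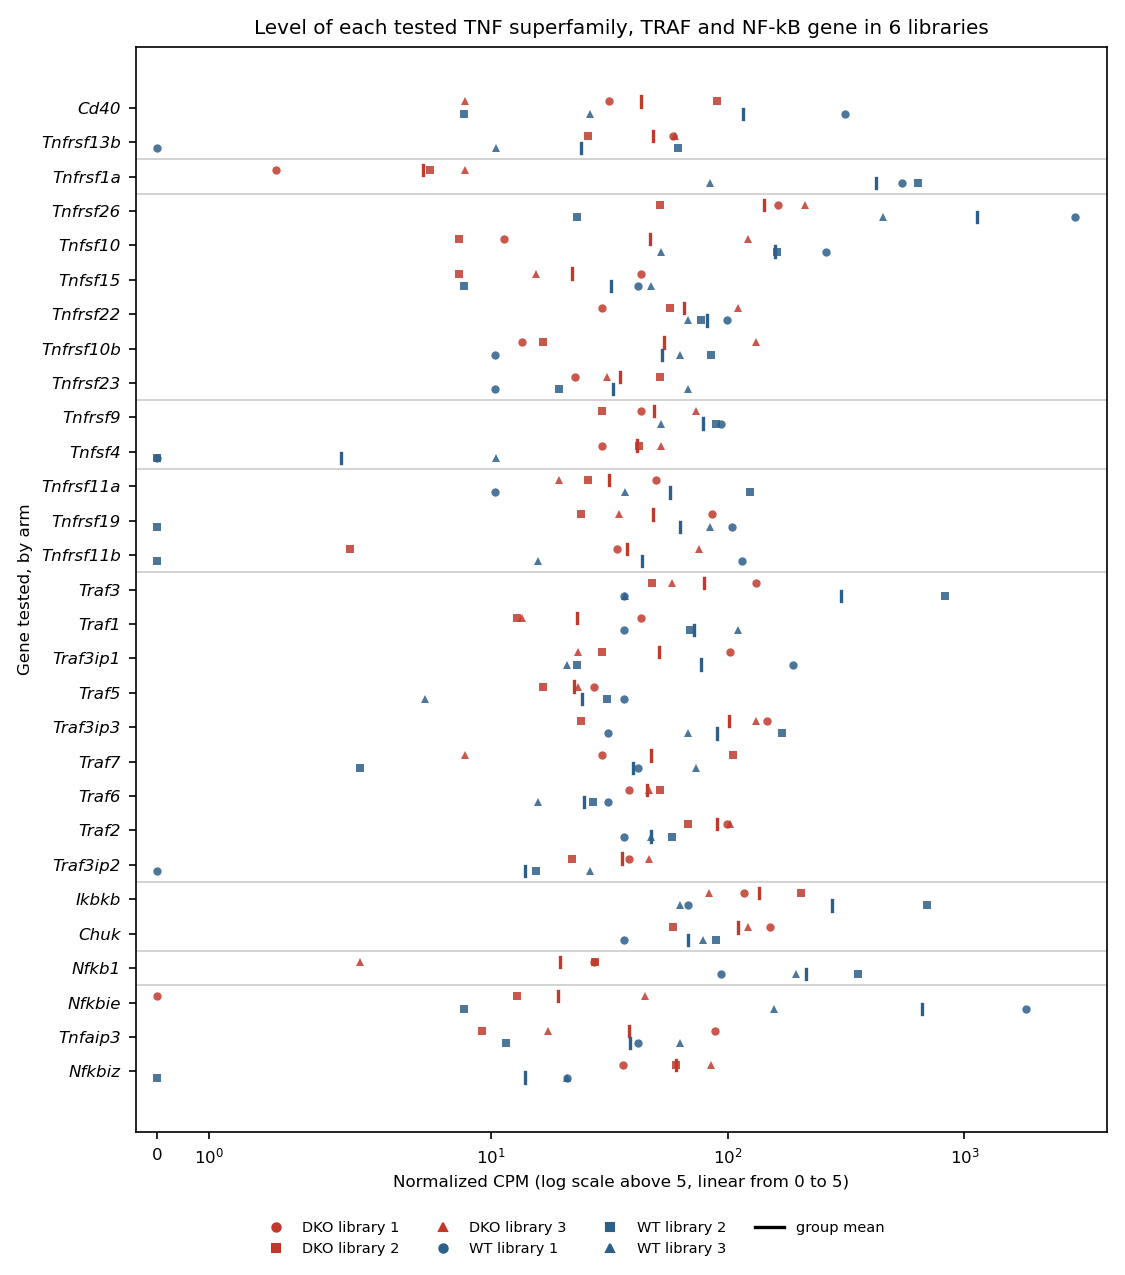
Normalized CPM of the 29 tested genes in each library, with libraries labelled DKO (red) drawn above libraries labelled WT (blue) in each row, a bar at each group mean and lines between arms. Tnfrsf1a and Nfkb1 are the 2 genes whose libraries labelled DKO all lie below the libraries labelled WT, and Tnfsf4, Nfkbiz, Traf2 and Traf6 the 4 that lie above.

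In the TNF and lymphotoxin arm the receptor genes for TNF itself were low in libraries labelled DKO. Tnfrsf1a encodes the death domain receptor for TNF (chromosome 6, 125349362 to 125362484, mm10). It had 1, 3 and 4 counts in libraries 1, 2 and 3 labelled DKO, and 104, 165 and 16 counts in libraries 1, 2 and 3 labelled WT. All libraries labelled DKO lay below all libraries labelled WT, at 2.26, 5.52 and 7.75 against 543, 638 and 84.0 normalized CPM. Its log2 fold change, the lowest among the 29, was -6.24 (SE 1.37), with an edgeR adjusted p of 0.389 and a DESeq2 adjusted p of 5.75e-06 with the filter and 0.000378 without it. Leaving out any single library kept it between -6.66 and -5.77. The scaled T cell, stromal and erythroid marker sums given above were on the same side, the first 2 only after scaling. Their part in this difference was not tested.

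The bases before the RefSeq start of Tnfrsf1a are shown because it is the member with the largest difference between the groups. This stretch is chr6:125349523-125349722 of GRCm38.p6, on the plus strand, 200 bases long, with 0 matches to the kB-like motif described with the NF-kB genes. It lies in an intron of other GENCODE transcripts of the gene, which begin further upstream:
Tnfrsf1a: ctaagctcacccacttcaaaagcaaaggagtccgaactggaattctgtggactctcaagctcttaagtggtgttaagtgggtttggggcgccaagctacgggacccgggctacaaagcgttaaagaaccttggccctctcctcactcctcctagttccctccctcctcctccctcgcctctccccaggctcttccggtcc

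The second TNF receptor gene, Tnfrsf1b, which lacks a death domain and is prominent on lymphocytes, was too sparse to test. It had 0, 2 and 0 counts in libraries labelled DKO and 32, 2 and 4 in libraries labelled WT. Once scaled, every library labelled DKO lay below every library labelled WT, by a narrow margin in library 2 of each (3.68 against 7.73 normalized CPM). The ligand genes were close to the floor. Summed over 3 libraries, Tnf had 12 counts in libraries labelled DKO and 15 in libraries labelled WT, Lta 12 and 22, and Ltb 0 and 3. Ltbr, the lymphotoxin beta receptor gene, was at 0 in every library. Tnfrsf14, which binds LIGHT and BTLA, had 1, 22 and 19 counts in libraries labelled DKO and 2, 0 and 0 in libraries labelled WT. Its ligand gene Tnfsf14, which encodes LIGHT, had 6, 2 and 2 counts in libraries labelled DKO and 0 in each library labelled WT.

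In the BAFF and CD40 arm no receptor separated the groups. Cd40 (chromosome 2, 165055627 to 165072948) had 14, 49 and 4 counts in libraries labelled DKO and 60, 2 and 5 in libraries labelled WT, so the ranges crossed. Its log2 fold change of -1.41 (SE 1.34, edgeR adjusted p = 0.670) rested on WT library 1, without which it was 1.43. Tnfrsf13b encodes TACI, a receptor for BAFF and APRIL that also limits B cell expansion. It had 26, 14 and 31 counts in libraries labelled DKO and 0, 16 and 2 in libraries labelled WT, with a log2 fold change of 0.94 (SE 1.18), or 3.16 without WT library 2. The other members of the arm were sparse. The BAFF receptor gene Tnfrsf13c had 3 counts in libraries labelled DKO and 3 in libraries labelled WT, and Tnfrsf17, the plasma cell receptor BCMA, had 26 and 6. Tnfsf13b, the BAFF gene, had 12 counts in libraries labelled DKO, 10 of them in library 3, and 1 in libraries labelled WT. Cd27, a memory marker in human B cells, had 3 counts in libraries labelled DKO and 10 in libraries labelled WT. Its ligand gene Cd70 had 0 and 2, and Cd40lg had 5 and 0. Tnfsf13, the APRIL gene, and its neighbour Tnfsf12 on chromosome 11 overlap the gene Tnfsfm13 on their own strand and the antisense gene Tnfsf13os. Strand use and annotation in counting are not given, so the zeros of Tnfsf13 and Tnfsf12 are uncertain. Tnfsf13os had 9 counts in libraries labelled DKO and 14 in libraries labelled WT, and the joint symbol Tnfsf12Tnfsf13 had 12 and 0.

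**Figure D3:**
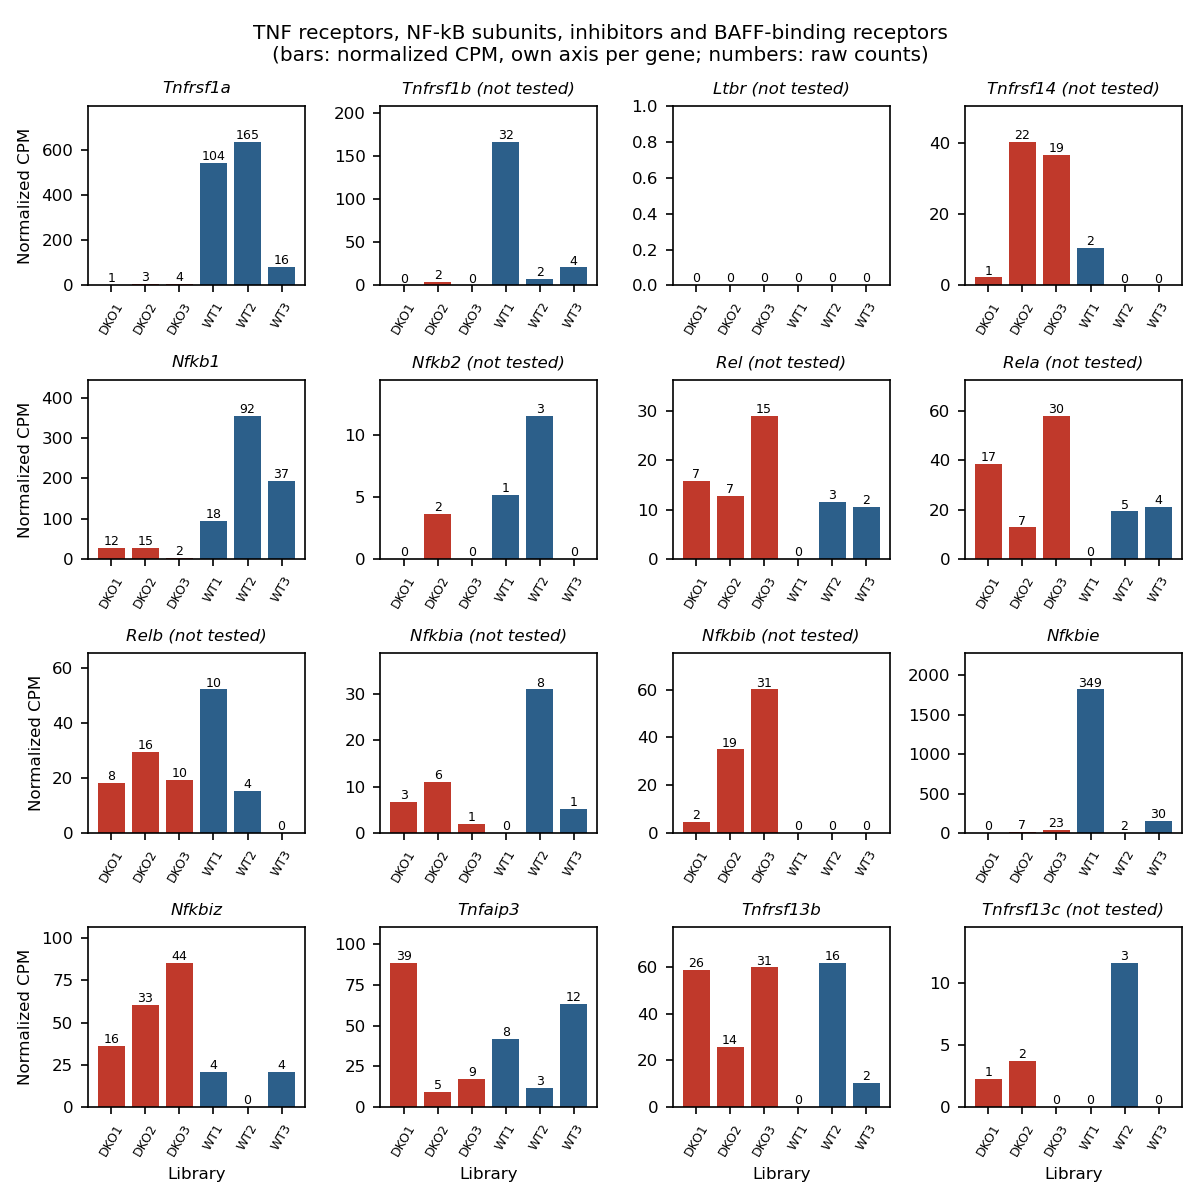
Normalized CPM (bars, an axis for each gene) and raw counts (numbers) in each library for TNF receptors, NF-kB subunits, inhibitors and BAFF-binding receptors; libraries labelled DKO are red, libraries labelled WT blue. Tnfrsf1a is near 0 in each library labelled DKO, while the bars of Nfkbie and Tnfrsf1b are dominated by WT library 1.

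The NF-kB subunit genes did not move as a block. Nfkb1 encodes p105, the precursor of p50 (chromosome 3, 135584655 to 135691547). It had 12, 15 and 2 counts in libraries labelled DKO and 18, 92 and 37 in libraries labelled WT. In normalized CPM it averaged 19.5 ± 13.6 in libraries labelled DKO and 215 ± 132 in libraries labelled WT (SD, n = 3 each), and the groups did not overlap. Nfkb1 had a log2 fold change of -3.44 (SE 1.11, edgeR adjusted p = 0.390), between -3.73 and -2.82 with any library left out. DESeq2 gave an adjusted p of 0.00643 with the filter and 0.0633 without it. The scaled T cell, stromal and erythroid marker sums lay on the same side, the first 2 only after scaling. Their part here was not tested either. The other subunit genes were too sparse to test. Rel, the c-Rel gene that B cells use on activation, had 7, 7 and 15 counts in libraries labelled DKO and 0, 3 and 2 in libraries labelled WT. All libraries labelled DKO lay above all libraries labelled WT for Rel, though only by 12.9 against 11.6 normalized CPM at the closest. Rela had 17, 7 and 30 counts in libraries labelled DKO and 0, 5 and 4 in libraries labelled WT, with scaled levels that overlapped. Relb had 34 counts in libraries labelled DKO and 14 in libraries labelled WT. Nfkb2, the p100 precursor gene, had 2 and 4.

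Inhibitors of NF-kB lay on both sides. Nfkbie encodes IkB epsilon (chromosome 17, 45555703 to 45563169). It had 0, 7 and 23 counts in libraries labelled DKO and 349, 2 and 30 in libraries labelled WT. WT library 1 alone held 89.1% of the summed normalized CPM, and WT library 2 lay below 2 libraries labelled DKO. The log2 fold change of -5.08 (SE 2.04, edgeR adjusted p = 0.390) was -1.997 without WT library 1 and -6.45 without DKO library 3, and the DESeq2 call (adjusted p = 0.0165) was lost without the filter (0.0719). Nfkbiz encodes IkB zeta, a nuclear member that acts as a coactivator. It had 16, 33 and 44 counts in libraries labelled DKO and 4, 0 and 4 in libraries labelled WT, with no overlap between the groups. Its log2 fold change of 2.14 (SE 1.16) did not pass (edgeR adjusted p = 0.455). The monocyte markers Itgam and Lyz2 were on the same side as Nfkbiz, while Fcgr1, Spic and Csf1r of their list were not. Bach2, Zbtb46, Pecam1 and Cd3e of other marker lists were on the side of Nfkbiz too. The part of these markers was not tested. Nfkbib, the IkB beta gene, had 2, 19 and 31 counts in libraries labelled DKO and 0 in each library labelled WT, too few to test. If the 3 libraries labelled WT are allowed 3 counts between them, its mean was at least 7.09-fold higher in libraries labelled DKO. Nfkbib overlaps Sirt2 and Ccer2 on the opposite strand, so its reads may not all be its own. Tnfaip3, which encodes the ubiquitin-editing enzyme A20, had 39, 5 and 9 counts in libraries labelled DKO and 8, 3 and 12 in libraries labelled WT (log2 fold change -0.013, SE 1.11, or -1.34 without DKO library 1). Summed counts of the remaining inhibitors were low: Nfkbia, the classical feedback inhibitor, had 10 in libraries labelled DKO and 9 in libraries labelled WT, Nfkbid had 2 and 7, and Nfkbil1 had 4 and 1.

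Several genes of this system are known as NF-kB targets themselves. A kB-like motif, GGG followed by any 3 bases and TTCC, was searched on both strands in the 250 bases before each RefSeq start (GRCm38.p6). It was present for 13 of the 50 member genes with a promoter entry (26%), and for 5.31% of the 27025 genes in that table. The form with ACT as its middle bases, which is contained in the first motif, was present for 2 of the 50 (4%, beside 0.159% of all genes). Both, Ltb and Nfkb2, have that match in a window that overlaps a GENCODE exon. A gene was counted if any of its RefSeq starts had a match, and the shares were not adjusted for starts per gene. Windows around a match are shown for inhibitor genes, c-Rel and Traf3, so that the letters behind these shares can be read. Capitals mark the match, which starts with GGAA and ends with CCC where it lies on the strand opposite to the gene:
Nfkbie, chr17:45555579-45555618, plus strand: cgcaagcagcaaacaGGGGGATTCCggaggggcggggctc
Nfkbia, chr12:55492652-55492691, minus strand: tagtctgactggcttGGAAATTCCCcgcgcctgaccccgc
Nfkbid, chr7:30422210-30422249, plus strand: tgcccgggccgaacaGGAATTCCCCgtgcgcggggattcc
Tnfaip3, chr10:19015411-19015437, minus strand: actggaatttccatcGGAAATCCCCct
Rel, chr11:23771036-23771075, minus strand: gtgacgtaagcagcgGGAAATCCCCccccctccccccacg
Traf3, chr12:111166345-111166369, plus strand: gcccaggcggcccgcGGGGATTTCC
The match is a description of the letters, not a bound site. Among tested genes with an entry, the 7 with a match had log2 fold changes from -5.08 (Nfkbie) to 0.70 (Chuk), 2 above 0 and 5 below, with a median of -0.13. The 12 without a match had a median of -0.45.

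TRAF adaptors and their partners had 9 of 10 genes tested, 5 above 0 and 4 below, and a median log2 fold change of 0.16. Traf2, a ubiquitin ligase adaptor shared by most of these receptors, had 44, 37 and 53 counts in libraries labelled DKO and 7, 15 and 9 in libraries labelled WT. Traf6, which serves CD40 and Toll-like receptors, had 17, 28 and 24 in libraries labelled DKO and 6, 7 and 3 in libraries labelled WT. For both genes each library labelled DKO lay above each library labelled WT, with log2 fold changes of 0.92 (SE 0.88) for Traf2 and 0.87 (SE 0.89) for Traf6, neither past the test (edgeR adjusted p = 0.672 and 0.695). Traf3, which holds NIK at a low level in resting B cells, had 58, 26 and 30 counts in libraries labelled DKO and 7, 215 and 7 in libraries labelled WT. The 215 counts of WT library 2 set its fitted value of -1.93 (SE 1.33), which was 1.14 without that library. Traf1, induced by NF-kB in activated lymphocytes, had 19, 7 and 7 counts in libraries labelled DKO and 7, 18 and 21 in libraries labelled WT (log2 fold change -1.63, SE 0.98, or -2.26 without DKO library 1). Traf5 had 12, 9 and 12 in libraries labelled DKO and 7, 8 and 1 in libraries labelled WT, and Traf7 had 13, 57 and 4 in libraries labelled DKO and 8, 1 and 14 in libraries labelled WT. Neither separated the groups. The TRAF-binding protein genes varied as widely. Traf3ip2, which encodes the IL-17 receptor adaptor Act1, had 17, 12 and 24 counts in libraries labelled DKO and 0, 4 and 5 in libraries labelled WT (log2 fold change 1.33, SE 1.11, or 2.14 without WT library 3). Traf3ip1, a gene for a ciliary transport protein, had 45, 16 and 12 in libraries labelled DKO and 36, 6 and 4 in libraries labelled WT. Traf3ip3 had 65, 13 and 68 in libraries labelled DKO and 6, 44 and 13 in libraries labelled WT. Traf4, not tested, had 53 counts in libraries labelled DKO, 51 of them in library 2, and 8 in libraries labelled WT, all in library 2.

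The kinases that pass the signal on gave opposite values for the catalytic subunits. Chuk, the IKK alpha gene, had 67, 32 and 63 counts in libraries labelled DKO and 7, 23 and 15 in libraries labelled WT, and its scaled levels overlapped (log2 fold change 0.70, SE 0.91). Ikbkb, the IKK beta gene, had 52, 111 and 43 counts in libraries labelled DKO and 13, 180 and 12 in libraries labelled WT. Its value of -1.03 (SE 1.18) was 1.08 without WT library 2. Ikbkg, the scaffold NEMO, had 46 counts in libraries labelled DKO and 11 in libraries labelled WT, and Map3k14, the NIK gene, had 34 and 8. Both were too sparse to test.

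**Figure D4:**
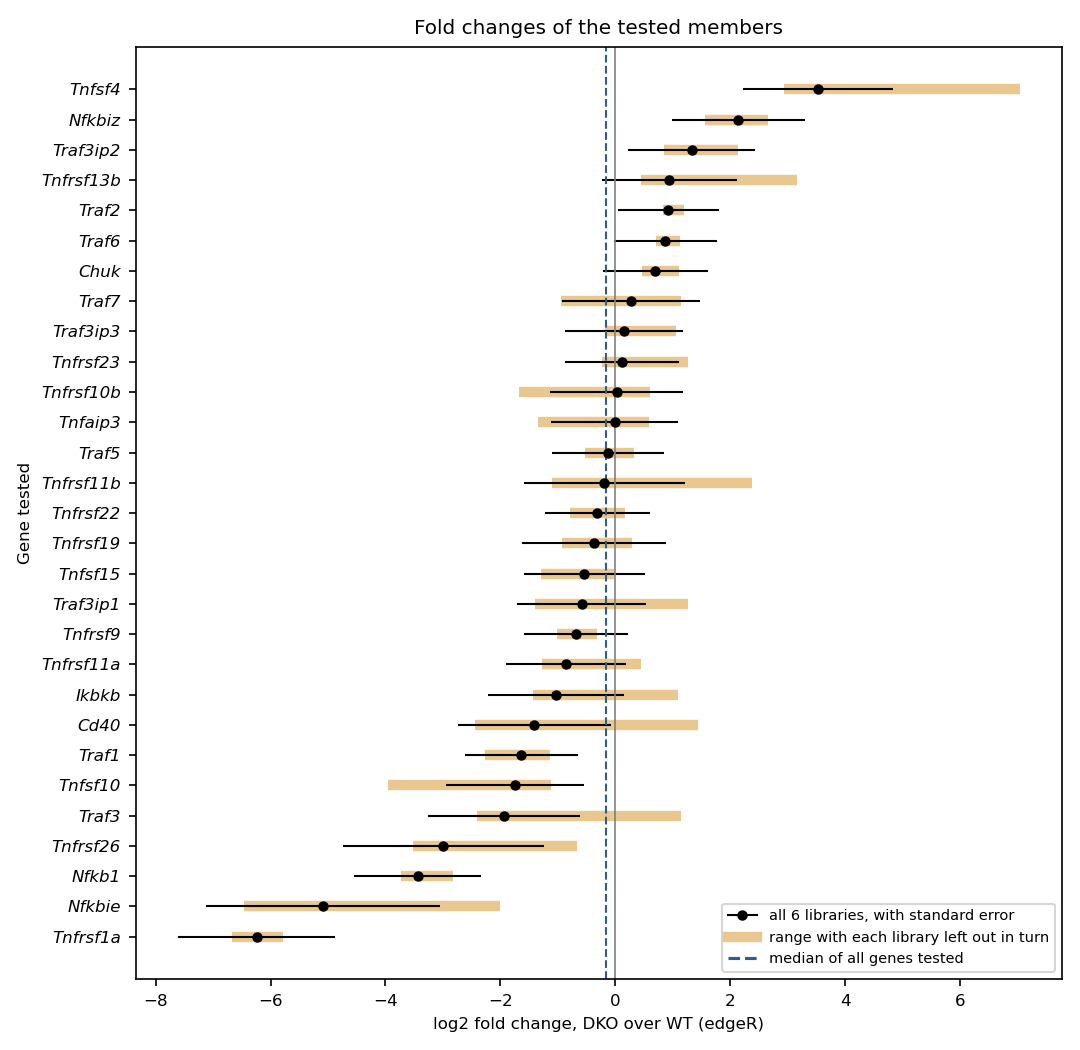
Log2 fold change of each of the 29 tested genes, libraries labelled DKO over libraries labelled WT (points, with standard error), with the range when each library is left out in turn (bars) and the median of all tested genes (dashed, -0.17). The bar of 14 genes crosses 0, and those of Tnfrsf1a and Nfkb1 stay below -2. The upper end of the Tnfsf4 bar comes from a fit with the libraries labelled WT at 0.

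TRAIL and the death receptors did not separate the groups. Tnfsf10, the TRAIL gene, had 5, 4 and 63 counts in libraries labelled DKO and 50, 42 and 10 in libraries labelled WT, and DKO library 3 lay above WT library 3. Its log2 fold change of -1.75 (SE 1.20) was -3.95 without DKO library 3. Tnfrsf10b, the mouse death receptor for TRAIL, had 6, 9 and 68 counts in libraries labelled DKO and 2, 22 and 12 in libraries labelled WT. Thus DKO library 3 was the highest of the 3 for both ligand and receptor. The decoy receptor genes lie together on chromosome 7 with Tnfrsf26 and are similar in sequence, so how reads were divided among them is uncertain. Tnfrsf22 had 13, 31 and 57 counts in libraries labelled DKO and 19, 20 and 13 in libraries labelled WT, and Tnfrsf23 had 10, 28 and 16 in libraries labelled DKO and 2, 5 and 13 in libraries labelled WT. Tnfrsf26 (143607659 to 143628722) had 72, 28 and 109 counts in libraries labelled DKO and 559, 6 and 86 in libraries labelled WT. It was the member with the highest level per kilobase of exon in both groups, 44.1 normalized CPM per kb in libraries labelled DKO and 352 in libraries labelled WT, and 76.4% of its summed level was in WT library 1. Its log2 fold change of -2.99 (SE 1.75) was -0.67 without that library. Tnfsf15, the ligand of Tnfrsf25, had 19, 4 and 8 counts in libraries labelled DKO and 8, 2 and 9 in libraries labelled WT. Tnfrsf25 had 9 in libraries labelled DKO and 34 in libraries labelled WT, 29 of them in WT library 1. Tnfrsf21 had 11 and 2.

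Among costimulatory members, the ligand gene Tnfsf4 had the highest fold change of the 29. Tnfsf4 encodes OX40 ligand, with which antigen-presenting cells, B cells included, costimulate T cells (chromosome 1, 161395409 to 161418410). It had 13, 23 and 27 counts in libraries labelled DKO and 0, 0 and 2 in libraries labelled WT, so the groups stood apart. It averaged 41.3 ± 11.5 normalized CPM in libraries labelled DKO and 3.50 ± 6.06 in libraries labelled WT (SD, n = 3 each). Its log2 fold change of 3.53 (SE 1.30) did not pass (edgeR adjusted p = 0.390). Without WT library 3, which held both of the WT counts, the fit gave 7.04. The libraries labelled WT were then at 0, so that size is not measured. Itgam and Lyz2, though not their list as a whole, were higher in the same libraries, as were Bach2, Zbtb46, Pecam1 and Cd3e of other marker lists. The part of these markers in the difference of Tnfsf4 was not tested. Tnfrsf9, a costimulatory receptor of activated lymphocytes, had 19, 16 and 38 counts in libraries labelled DKO and 18, 23 and 10 in libraries labelled WT (log2 fold change -0.69, SE 0.90). Of the sparse members, Tnfsf18 had 137 counts in libraries labelled DKO, 115 of them in library 2, and 5 in libraries labelled WT. Tnfsf8 had 36 and 10 counts, Tnfrsf8 had 8 and 21, Tnfrsf4 had 24 and 22, Tnfrsf18 had 4 and 9, and Tnfsf9 had 9 and 0, in libraries labelled DKO and WT in that order.

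Members known mainly outside B cells were also counted. Tnfrsf11a, the gene for RANK of osteoclast precursors, had 22, 14 and 10 counts in libraries labelled DKO and 2, 32 and 7 in libraries labelled WT (log2 fold change -0.86, SE 1.04, or 0.45 without WT library 2). Tnfrsf11b, the decoy receptor osteoprotegerin, had 15, 2 and 39 in libraries labelled DKO and 22, 0 and 3 in libraries labelled WT. Tnfrsf19, best known in skin and brain development, had 38, 13 and 18 in libraries labelled DKO and 20, 0 and 16 in libraries labelled WT. None of these 3 genes separated the groups. The RANK ligand gene Tnfsf11 had 13 counts in libraries labelled DKO and 4 in libraries labelled WT.

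Other genes of the same pathways, listed by role, lay on both sides of 0. Of the 28 tested, 15 lay above 0 and 13 below, with a median log2 fold change of 0.13, and edgeR called 0. Of 9 tested adaptors and ubiquitin enzymes, 5 lay above 0. Fadd, the death domain adaptor downstream of TNF receptors, had 61, 38 and 20 counts in libraries labelled DKO and 0, 2 and 4 in libraries labelled WT. The groups did not overlap for Fadd, whose log2 fold change was 3.07 (SE 1.20), or 4.26 without WT library 3. The ubiquitin ligase gene Itch followed at 0.65 (SE 0.95) without overlap between the groups, and the kinase gene Ripk1 at 0.39 (SE 1.05), or 1.57 without WT library 1. Below 0 were Tax1bp1, a partner of A20, at -2.34 (SE 1.51), or 1.00 without WT library 3, Cflar, the inhibitor of caspase 8, at -1.63 (SE 0.99) without overlap, or -2.38 without DKO library 2, and Birc3 at -0.41 (SE 1.03), or 0.86 without WT library 1. The margin was narrow for Cflar, at 71.8 normalized CPM in DKO library 2 against 73.5 in WT library 3. For Itch it was 215 in DKO library 1 against 205 in WT library 3.

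Of 13 tested kinases and B cell receptor signalling genes, 8 lay above 0. Highest by p were Prkcb, the kinase that links the B cell receptor to NF-kB, at 1.30 (SE 0.91) without overlap, Azi2 at 0.86 (SE 1.02), or 1.93 without WT library 1, and Map3k1 at 1.04 (SE 1.38), or -0.52 without DKO library 3. Below 0, Ikbke stood at -0.79 (SE 1.22) and, with WT library 1 left out, at 1.36. Prkcq stood at -0.60 (SE 1.11), or 1.09 without WT library 2. Of 7 tested NF-kB target genes, 2 lay above 0: the cytokine gene Il6, with 26, 161 and 35 counts in libraries labelled DKO and 0, 1 and 0 in libraries labelled WT, and Irf4 at 1.15 (SE 1.23), or 2.64 without WT library 2. Il6, at 6.26 (SE 1.47), was the gene of these lists that DESeq2 called (adjusted p = 0.00385), while edgeR gave an adjusted p of 0.389. Without WT library 2 the fit gave 8.75 for Il6, but the libraries labelled WT were then at 0, so that size is not measured. For Il6 and Fadd, too, Itgam and Lyz2, though not their list as a whole, were on the same side. So were Bach2, Zbtb46, Pecam1 and Cd3e of other marker lists, and the part of these markers was not tested. Cd86, a costimulatory ligand, stood at -2.48 (SE 1.09) and, with WT library 3 left out, at -1.36. Cd83 was at -0.52 (SE 1.09), or 1.53 without WT library 1. Birc3 is on both lists.

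**Figure D5:**
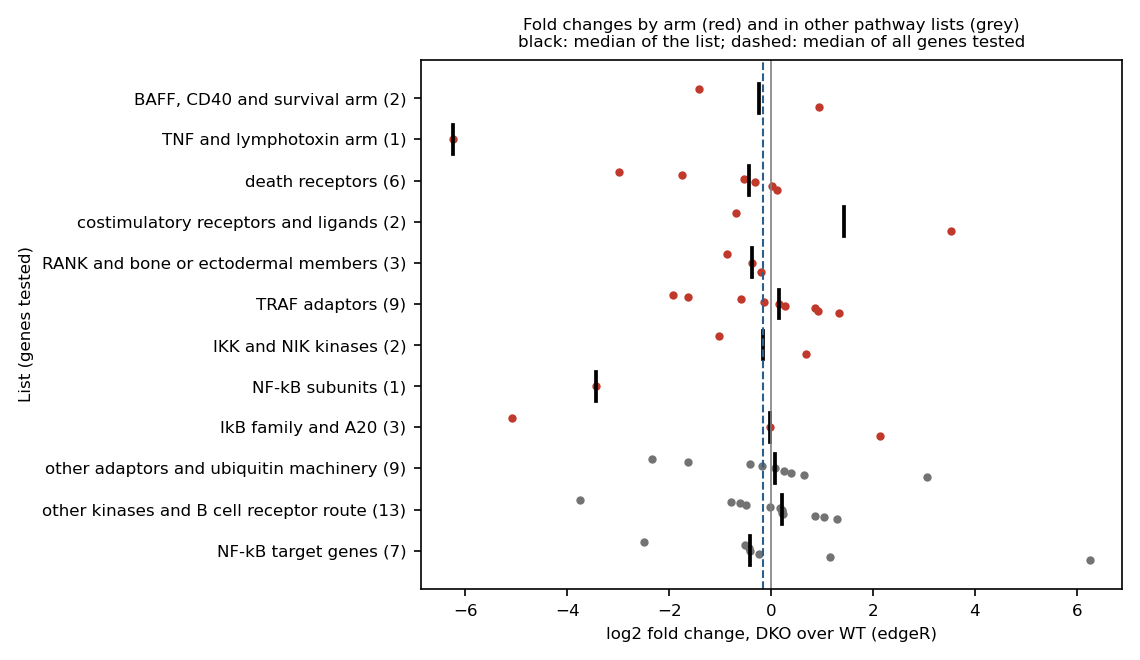
Log2 fold change of each tested gene by arm (red) and in the other pathway lists (grey), libraries labelled DKO over libraries labelled WT, with each list's median (black) and the median of all tested genes (dashed, -0.17). Single genes such as Tnfrsf1a at -6.24 and Il6 at 6.26 lie far from the medians of the other lists, and Fadd at 3.07 stands apart within its list.

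Libraries of a group differed widely. The median coefficient of variation over the 29 genes was 57.7% in libraries labelled DKO and 86.6% in libraries labelled WT, beside 49.7% and 92.6% over all tested genes. The library with the highest level was a library labelled DKO for 10 of the 29 genes and a library labelled WT for 19, 65.5%, beside 62.2% of all genes. For 6 of the 29 (20.7%, against 29.7% of all genes), more than 50% of the summed level came from a single library. Scaling shifted the members with the rest of the table: with library totals alone the median was 0.46 over the 29 genes and 0.62 over all genes, and 8 of the 29 changed sign.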

How the data were processed

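The authors deposited a table of unnormalized read counts, 1 row per gene symbol and 6 libraries. CASAVA, STAR, edgeR, R 3.6.3 and mm10 stand, without roles, in the submitters' processing notes; per the labels' protocols, libraries were made with a single-cell RNA kit and enriched for polyadenylated RNA. The counting tool, strand setting and annotation were not given in the sources used here. Overlapping, antisense and near-identical genes are therefore uncertain.

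Genes were kept by filterByExpr (minimum count 10), scaled by TMM and compared by the robust quasi-likelihood F test of edgeR 4.0.16 under R 4.3.3, with no covariate and with Benjamini-Hochberg adjustment over 8895 genes. The standard error is the log2 fold change over the square root of F. The fit was tested on simulated data: at a low spread it recovered nearly all genes simulated as changed, at the spread measured here almost none, large changes included. Normalized CPM divide a count by the scaled library size. Alternatives were DESeq2 1.42.0 with and without the filter (the second added after seeing the data), limma-voom 3.58.1 with quality weights, other scalings and filters, a replicate block, and leaving out each library. Positions and exonic lengths are GENCODE release M21 (66 of 67 symbols matched) and upstream sequences RefSeq; Python 3.11.15 was used. Depth was 312908 to 517057 counts per library, and the floor of 3 counts covers counting error alone, since reads were amplified and the labels name no molecular identifiers.

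Members, lists and alternatives were chosen with earlier results of these data known. All tested members are named with counts, sparse members with group sums, and for other pathway lists the 3 with the smallest p in each direction, of which 1 is not reported here. Which marker genes and sparse members are given per library, and which sequences are printed, was chosen after values were seen.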

Additional observations from a re-analysis of the deposited data

How the results depend on the processing

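No scaling or estimation choice within edgeR gave a call among the 29 genes. Over all genes, edgeR called 130 with no filter on low counts, where 63 members were fitted and 0 called. DESeq2 called 601 genes, 3 of them members and 1 among the other pathway genes. Without the filter, an alternative chosen after seeing the data, it called 254, 1 member and 1 other pathway gene; the cause was not tested. The median of the members was 0.46 with no scaling factor, 0.17 with no filter and 0.070 at a mean CPM of at least 10, where 63 and 47 members entered. With each library left out it lay between -0.52 and 0.21, but the filter was then reapplied, so the members entering differed. Over those of the 29 genes fitted each time, it lay between -0.47 and -0.078. Same-numbered libraries had correlated deviations of only 0.0228 to 0.0368 across genes, so the numbers were not taken to pair the samples, though each library correlated best with its own number, a hint from the data and not the design. With the replicate number as a block, 0 genes were called, and Tnfrsf10b was at -0.29, Tnfrsf11b at 0.62, Tnfrsf19 at 0.30, Traf5 at 0.070 and Traf7 at -0.095.

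Over all settings, 16 of the 29 genes changed sign at least once, among them Ikbkb, whose reported value is -1.03. With no scaling factor Tnfaip3 was at 0.70, Tnfrsf11b at 0.48, Tnfrsf19 at 0.33, Tnfrsf22 at 0.46, Tnfrsf9 at 0.081, Tnfsf15 at 0.17, Traf3ip1 at 0.12 and Traf5 at 0.64. With the upper quartile Tnfaip3 was at 0.22 and Traf5 at 0.13, with TMMwsp Tnfaip3 was at 0.030, and Tnfrsf10b was at -0.095 with DESeq2 size factors and -0.096 with DESeq2 itself. With no filter Tnfaip3 was at 0.29, Tnfrsf11b at 0.14, Tnfrsf22 at 0.025 and Traf5 at 0.17, and in DESeq2 without it Tnfaip3 was at 0.011. At a mean CPM of at least 10, Tnfaip3 was at 0.16 and Traf5 at 0.070. In limma-voom Ikbkb was at 0.11, Tnfrsf10b at -0.38, Tnfrsf11b at 0.11, Tnfrsf19 at 0.27, Traf5 at 0.22 and Traf7 at -0.0058.

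With each library left out in turn, signs turned for 14 genes: Cd40 (-2.44 to 1.43), Tnfaip3 (-1.34 to 0.60), Tnfrsf10b (-1.68 to 0.61), Tnfrsf11b (-1.11 to 2.38), Tnfrsf19 (-0.93 to 0.29), Tnfrsf23 (-0.23 to 1.27), Traf3ip1 (-1.39 to 1.27), Traf3ip3 (-0.18 to 1.05), Traf5 (-0.52 to 0.33), Ikbkb (-1.43 to 1.08), Tnfrsf11a (-1.28 to 0.45), Traf3 (-2.40 to 1.14), Traf7 (-0.95 to 1.15) and Tnfrsf22 (-0.79 to 0.18). In all, 21 of the 29 moved by over 1.5-fold. At this depth 34 counted genes were too sparse to test, and 4 had no count.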

Other observations

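Neighbouring genes on 2 chromosomes were placed side by side after their values were seen. The ligand genes Tnfsf4 and Tnfsf18 lie next to each other on chromosome 1, starting at 161395409 and 161494655 in mm10, and both had most of their counts in the libraries labelled DKO. Tnfsf18 had 9, 115 and 13 counts in libraries labelled DKO and 0, 1 and 4 in libraries labelled WT, but once scaled WT library 3 (21.0 normalized CPM) lay just above DKO library 1 (20.4), so the groups overlapped. Their receptor genes Tnfrsf4 and Tnfrsf18 lie close together on chromosome 4 and did not follow. Tnfrsf4 had 1, 17 and 6 counts in libraries labelled DKO and 1, 0 and 21 in libraries labelled WT, and Tnfrsf18 had 1, 3 and 0 in libraries labelled DKO and 8, 0 and 1 in libraries labelled WT. Of these 4 genes only Tnfsf4 had enough counts to be tested, and it did not pass.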
